A study of Mus musculus with 12 samples.

Results

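The mRNA of 10 cyclic nucleotide phosphodiesterases was followed in vHPC neurons that project to NAc, in WT and FosB KO mice. The genes, named by symbol, are Pde1a, Pde1b, Pde2a, Pde4a, Pde4b, Pde4d, Pde7b, Pde8b, Pde9a and Pde10a. They make up 11 of the 37310 gene rows counted, because Gencode vM1 holds 2 entries named Pde4d: the gene itself and an entry of 1 exon that begins just beyond its end, called the Pde4d downstream entry here. All 11 entries passed the filter on low counts in every comparison.

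Phosphodiesterases hydrolyse cAMP and cGMP and so end the signal that adenylyl and guanylyl cyclases begin. In hippocampal neurons that signal runs through protein kinase A, Epac and protein kinase G, and is known for its part in synaptic plasticity, excitability and memory. The families differ in substrate and control: PDE1 is switched on by calcium and calmodulin, PDE2 is stimulated by cGMP, PDE4, PDE7 and PDE8 act on cAMP, PDE9 acts on cGMP, and PDE10 acts on both. Pde10a, Pde1b and Pde7b are known for high expression in striatal medium spiny neurons.

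TRAP (translating ribosome affinity purification) collects mRNA on ribosomes of chosen cells. All mice, of the C57BL/6 strain by the labels, carried the Rosa26 eGFP-L10a allele, a Cre-dependent fusion of GFP with a ribosomal protein, and received the retrograde vector HSV-hEf1α-Cre in NAc. WT mice had intact FosB, and KO mice were FosB fl/fl, a design meant to remove FosB in the neurons that gain the tag. Tissue was punched from vHPC 3 weeks after the vector, and mice were pooled, 3 per pool by the labels and 3 to 4 by the protocol. WT pools are numbered 1 to 3 and KO pools 2 to 4. From each pool, purified RNA (TRAP) and RNA of the whole punch (input) were sequenced separately, which makes 4 groups of 3 and 12 libraries. The promoter of the vector is not specific to a neuron type, and any neuron with an axon in NAc could be tagged.

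All but 1 of the genes encode the same residues in a short metal-binding stretch of the catalytic domain, His-Asp, His and Asn at fixed spacing, shown here as what the members have in common. Each line gives 30 bases of coding sequence, 5′ to 3′, read from Gencode vM1 transcripts, with the codons that match the signature in capitals. Pde7b has cag, a Gln codon, in place of the final Asn codon that was searched for, and those bases are left in lower case. This does not set Pde7b apart from the enzyme family.
Pde1a: CATGATtatgagCACacaggaacaacaAAC
Pde1b: CATGACtatgagCACacaggcacaaccAAC
Pde2a: CATGACctggacCACagaggcacaaacAAC
Pde10a: CATGACctggacCACaggggcttcagtAAC
Pde4a: CATGACgtggacCACcctggcgtctccAAC
Pde4b: CATGATgtcgatCATcctggagtctccAAT
Pde4d: CATGATgtggacCATcctggggtgtcaAAT
Pde7b: CATGACgtggacCACccaggggtcaaccag
Pde8b: CACGACgtggatCACcccggaaggaccAAC
Pde9a: CATGACctggacCACccagggtacaacAAT
On mm9 the stretches lie at chr2:79728018-79728047 on the minus strand (exon 9 of a Pde1a transcript), chr15:103355280-103355309 on the plus strand (exon 8 of Pde1b), chr7:108656996-108657025 on the plus strand (exon 24 of Pde2a), chr17:9160314-9160343 on the plus strand (exon 17 of Pde10a) and chr9:21008819-21008848 on the plus strand (exon 11 of Pde4a). The others lie at chr4:102272299-102272328 on the plus strand (exon 13 of Pde4b), chr13:110729521-110729550 on the plus strand (exon 11 of Pde4d), chr10:20154316-20154345 on the minus strand (exon 7 of Pde7b), chr13:95804261-95804290 on the minus strand (exon 17 of Pde8b) and chr17:31597175-31597204 on the plus strand (exon 12 of Pde9a). Pde1a and Pde1b differed at 3 of these bases, Pde4b and Pde4d at 5, and Pde4a at 6 from each of Pde4b and Pde4d. When stretches of 75 bases tiled over the exons were aligned to mm9, none had another place at up to 2 mismatches except 1 of 427 in Pde10a. No exon base of a member overlapped an exon of another gene. Pde4d is the longest gene, spanning 1504 kb, and the 10 genes have from 2.83 kb (Pde9a) to 12.6 kb (Pde10a) of exon.

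Reads counted on genes ran from 3416030 to 5614089 per library. Expression is given in CPM (counts of a gene per 1000000 counts in its library, after TMM scaling over the 12 libraries). FosB itself, the targeted gene, had 45.3, 32.1 and 40.2 CPM in WT TRAP 1 to 3, whereas KO TRAP 2 to 4 had 29.4, 18.8 and 21.5 CPM. The groups did not overlap, and the log2 fold change was −0.76 (SE 0.21), with an adjusted p of 0.337 over all genes by edgeR's quasi-likelihood test. In input, FosB was at 22.3 to 30.3 CPM in WT and 14.9 to 17.1 CPM in KO, again without overlap, and the log2 fold change there was −0.68 (SE 0.22, adjusted p = 1.00 by edgeR). The interaction was −0.08 (SE 0.30), so these values do not show a loss confined to the tagged neurons. Counts over the whole gene cannot show which exons were lost. Markers of glutamatergic neurons summed to at least 8547 CPM in each TRAP library and to at most 7655 CPM in each input library, and the CA1 and subiculum markers summed to 398 to 694 CPM in TRAP and 289 to 426 CPM in input. Called markers are counted here only among those that passed the filter on low counts within TRAP and within input alone, since a gene admitted through input only had to be lower in TRAP. Of the glutamatergic markers 6 of 10 were higher in TRAP and 1 lower, of the CA1 and subiculum markers 2 of 5 were higher, and of the CA2 and CA3 markers 2 of 7 were higher and 2 lower. Lower in TRAP were 9 of 9 astrocyte, 5 of 5 oligodendrocyte, 8 of 13 GABAergic neuron, 3 of 4 dentate granule cell and 2 of 3 oligodendrocyte precursor markers, with 1 GABAergic and 1 precursor marker higher. No microglia marker passed within TRAP, and the 10 listed summed to 7.83 to 16.0 CPM there and 82.9 to 150.1 CPM in input.

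WT input 1 stood apart from the other inputs by depth and by the number of genes detected. It had 3416030 reads on genes, the fewest of the 12 libraries, and counts on 15678 genes, against 17255 to 18090 in the other 5 inputs and 15601 to 15989 in TRAP. Reads of the mitochondrial genome made up 5.29% there, 6.42% to 9.05% in the other inputs and at most 0.13% in TRAP.

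WT input 3 stood apart by markers of striatal medium spiny neurons, a cell type outside the punched region. It was the highest of the 12 libraries for 6 of the 7 markers listed, Rxrg being the exception. Ppp1r1b reached 147 CPM there and 33.0 to 77.8 CPM in the other 11 libraries, Adora2a 8.18 CPM against 0 to 3.90, and Rgs9 38.0 CPM against 2.62 to 20.2. The 7 markers together summed to 268 CPM in WT input 3 and to 88.3 to 153 CPM elsewhere. The same library held the highest Pde10a and Pde7b values of all 12, and the highest value of the 6 input libraries for 5 of the 11 entries: those 2 genes, Pde1b, Pde2a (347 CPM against 297 to 340 in the other 5) and Pde4b (104 against 76.3 to 90.9 CPM). How often it was the highest input over all genes was not counted, so the 5 of 11 has no background share.

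**Figure D1:**
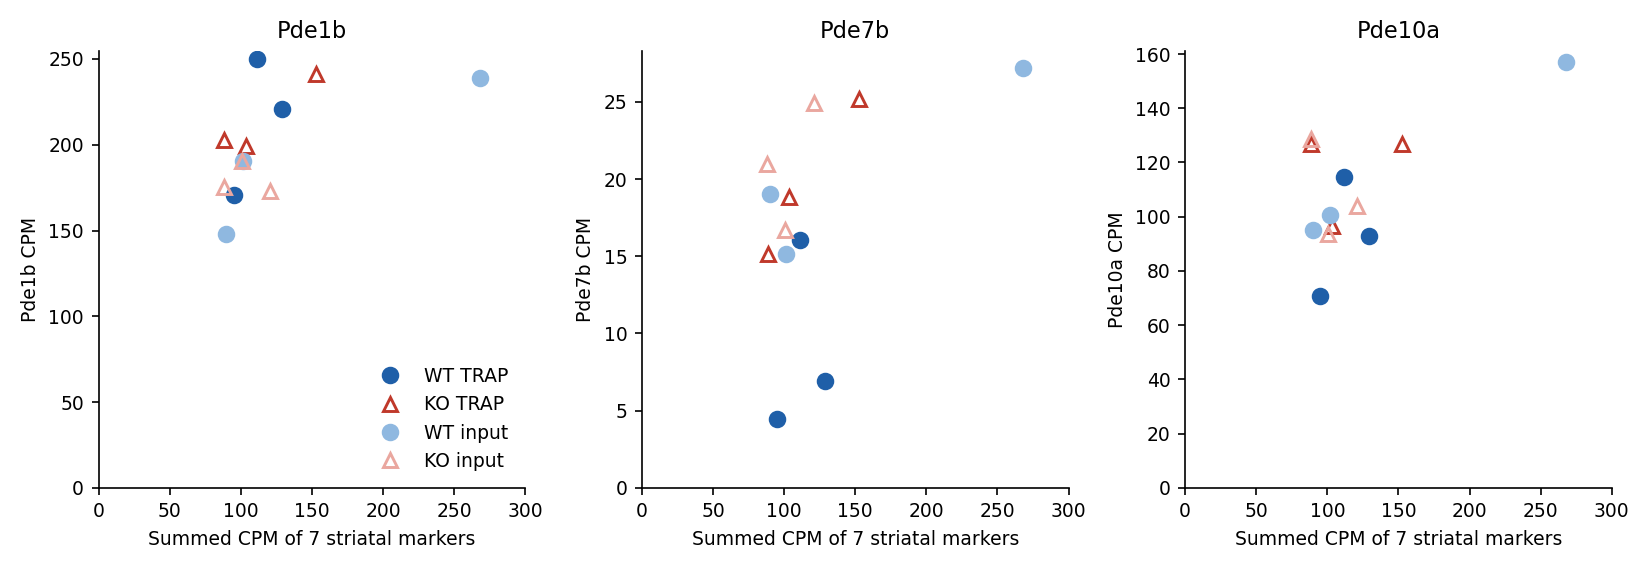
CPM of Pde1b, Pde7b and Pde10a (y axes) against the summed CPM of 7 striatal markers (x axes) in each of the 12 libraries, WT as filled circles and KO as open triangles. WT input 3, at 268 CPM of markers, lies far to the right of the other libraries and holds the highest Pde7b (27.2 CPM) and Pde10a (157 CPM).

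The calmodulin-stimulated Pde1a and the cGMP-stimulated Pde2a were the most abundant of the 10 genes, and Pde7b the least. To compare genes, CPM was divided by the length of each gene's exons in kb. Over the 12 libraries, Pde1a averaged 86.2 ± 13.0 CPM per kb (SD, n = 12) and Pde2a 81.1 ± 15.4. Pde1a lay above 95.3% of the genes tested at that scale. Pde1b followed with 46.9 ± 7.48 CPM per kb. The Pde4d downstream entry averaged 14.6 CPM per kb, Pde4a, Pde8b, Pde9a, Pde4b and Pde10a averaged 13.5, 11.2, 10.6, 8.99 and 8.65, Pde4d 5.43 and Pde7b 2.43. In CPM, Pde8b was the steadiest over the libraries, from 55.1 to 76.3 (coefficient of variation 10.3%), and Pde7b the least steady, from 4.48 to 27.2 (39.2%). Pde1b ran from 148 to 250 CPM, Pde4a from 81.3 to 125 CPM and Pde9a from 21.6 to 37.7 CPM.

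The order was much the same in all 4 groups. Pde1a and Pde2a overlapped in range in WT TRAP, KO TRAP and WT input, while in KO input Pde1a (70.1 to 81.1 CPM per kb) lay above Pde2a (64.7 to 68.3). Pde1b was separate from its neighbours above and below in every group, and so were Pde4d and Pde7b at the lower end. Between them, Pde9a, Pde8b, Pde4b and Pde10a changed places, and most neighbours there overlapped. The Pde4d downstream entry stood below Pde4a in TRAP and above it in input, and in KO input the downstream entry (15.8 to 16.3 CPM per kb) did not overlap Pde4a (up to 14.8). Pde1a and Pde2a together made up 58.8% to 62.3% of the summed CPM per kb of the 11 entries in the TRAP libraries and 51.7% to 56.3% in the input libraries.

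**Figure D2:**
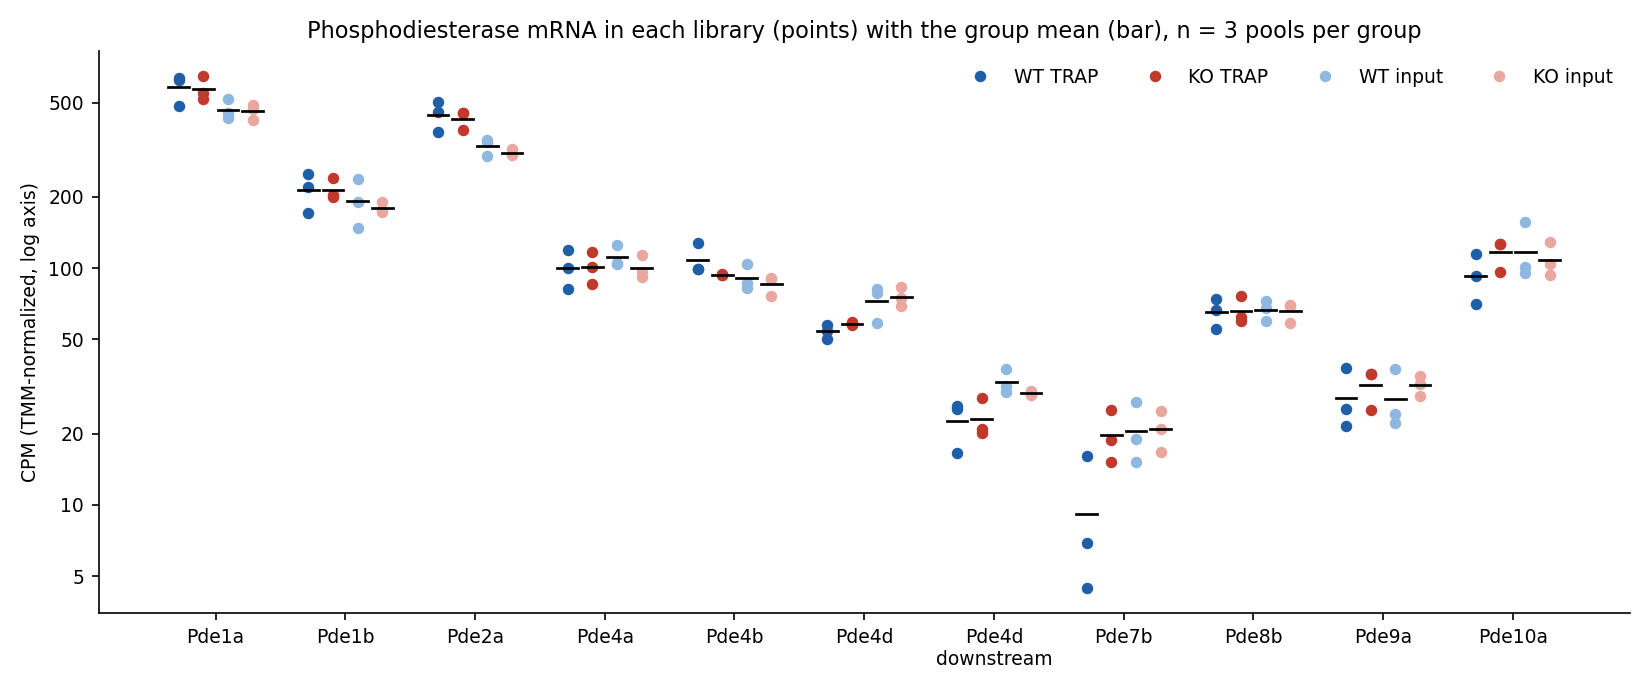
CPM of the 11 entries on a log axis in each library, with points for libraries, bars for group means and colours for the 4 groups (n = 3 pools each). Pde7b in WT TRAP spreads most, from 4.48 to 16.0 CPM, while Pde1a and Pde2a are the highest entries in every group.

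TRAP was first compared with input, to ask which phosphodiesterase mRNAs were richer or poorer on the tagged ribosomes than in the punch. Pde1a and Pde2a were higher in TRAP, and Pde4d, its downstream entry and Pde7b were lower. That is 5 of 11 entries at an adjusted p under 0.05 (edgeR, 12 libraries in 4 groups), while 42.2% of all genes tested passed, so the share called was near that of genes in general. By direction, 2 of 11 were higher against 19.6% of all genes, and 3 of 11 were lower against 22.5%. These shares of all genes include genes admitted through input only, whereas all 11 entries passed within both fractions. In such bulk samples, fewer cells of a type and less RNA per cell cannot be told apart.

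Pde2a, which couples cGMP to the breakdown of cAMP, had the clearest difference. Its level was 502, 375 and 455 CPM for WT TRAP 1 to 3, 452, 382 and 450 CPM for KO TRAP 2 to 4, 340, 297 and 347 CPM for WT input 1 to 3, and 303, 300.5 and 317 CPM for KO input 2 to 4. Every TRAP library was above every input library. The log2 fold change was 0.46 (SE 0.08), a fold of 1.37 (95% interval 1.23 to 1.53), with an adjusted p of 1.75e-05. TRAP was above input in 6 of 6 pools, by 0.33 to 0.58 on the log2 scale, and the exact two-sided sign-flip p was 0.03125, the smallest that 6 pools allow.

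Pde1a, a calmodulin-dependent enzyme, rose less. Purified RNA held 485, 637 and 624 CPM in WT pools and 516, 646 and 550 CPM in KO pools. Input held 451, 517 and 432 CPM in WT and 489, 422 and 468 CPM in KO. WT TRAP 1 and KO TRAP 2 lay within the input range, while the pool-by-pool ratio was above 0 in 6 of 6 pools. The log2 fold change was 0.31 (SE 0.08), a fold of 1.24 (95% interval 1.11 to 1.39), with an adjusted p of 0.00171.

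Pde4d, whose long and short forms are tied to scaffolds that place cAMP breakdown within the cell, moved the other way. The TRAP libraries had 57.7, 54.4 and 50.1 CPM for WT and 57.9, 59.4 and 57.3 CPM for KO, against 58.8, 78.3 and 81.6 CPM in WT input and 74.6, 69.2 and 83.1 CPM in KO input. Only WT input 1, the library with fewer genes detected than the other inputs, came down to the level of the TRAP libraries. What that library's lower gene number contributes was not tested. The log2 fold change was −0.41 (SE 0.10), a fold of 0.755 (95% interval 0.653 to 0.873), with an adjusted p of 0.0021. The downstream entry, at chr13:110744317-110746171 on mm9, gave −0.46 (SE 0.15, adjusted p = 0.014), and both entries were lower in TRAP in 6 of 6 pools. Without WT pool 1, KO pool 2 or KO pool 4, the adjusted p of the downstream entry was 0.0508, 0.0607 or 0.0842.

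Pde7b, a cAMP-specific enzyme, was lower in TRAP, with a log2 fold change of −0.61 (SE 0.24, adjusted p = 0.0478), but its pools were split. The log2 ratio of TRAP to input was −1.97 and −1.90 in WT pools 2 and 3, and 0.08 in WT pool 1, whose input is the one with fewer genes detected. In KO pools 2, 3 and 4 it was 0.013, 0.17 and −0.45. TRAP was thus lower in 3 of 6 pools, with an exact sign-flip p of 0.25. The call was lost when any pool but WT pool 1 was left out (adjusted p 0.0758 to 0.264) and with total counts in place of TMM scaling (adjusted p = 0.0618), and without WT pool 3, whose input was rich in striatal markers, the log2 fold change was −0.39 (adjusted p = 0.264). Without WT pool 1 it was −1.04 (adjusted p = 0.000208).

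**Figure D3:**
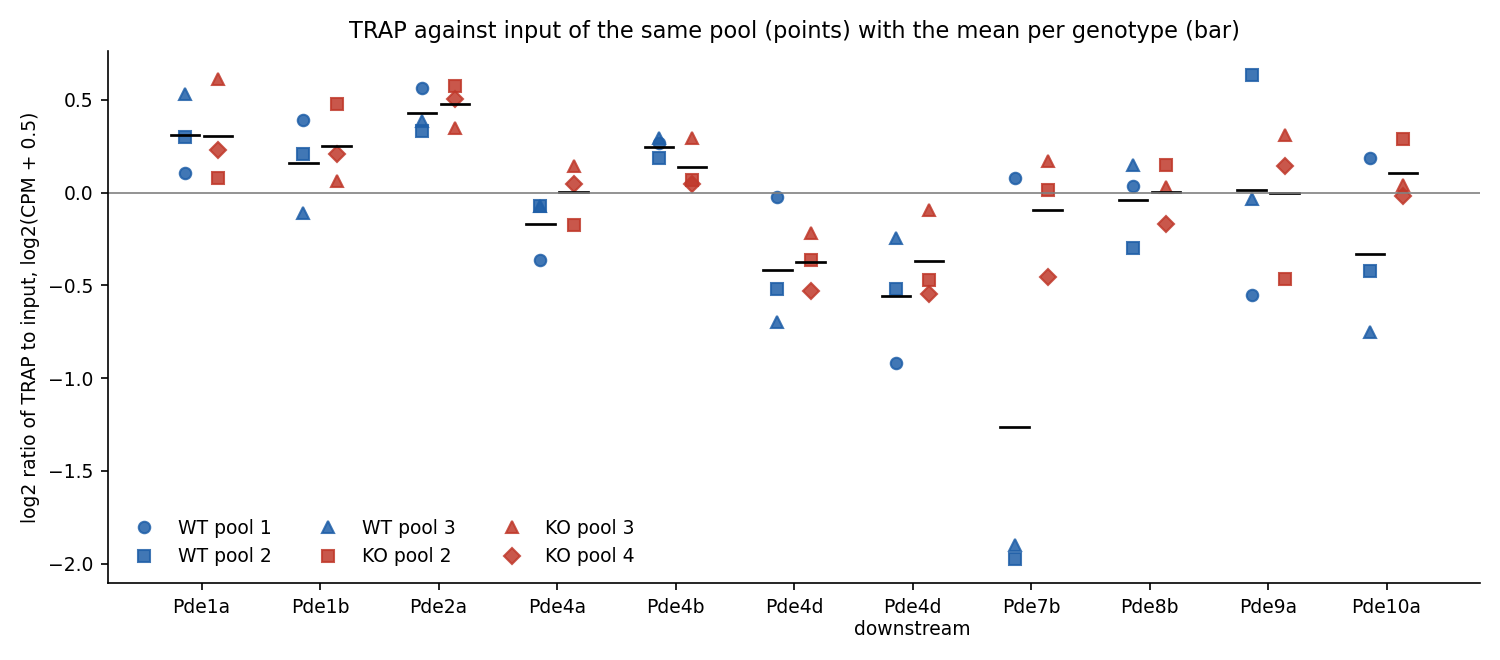
Log2 ratio of TRAP to input for each pool, from log2(CPM + 0.5), with WT pools in blue, KO pools in red and bars for the mean of each genotype. All 6 pools lie above 0 for Pde1a, Pde2a and Pde4b and below 0 for both Pde4d entries, while WT pools 2 and 3 of Pde7b lie near −2 and the other pools of Pde7b between −0.45 and 0.17.

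The remaining genes were not called in this comparison. Pde4b was above input in 6 of 6 pools by a small margin, with a log2 fold change of 0.19 (SE 0.09, adjusted p = 0.109). A ratio of the same sign in all pools was found for 5 of 11 entries, and for 38.6% of all genes tested. Pde1b gave 0.20 (SE 0.11, adjusted p = 0.135). With the pool as a block, which joins the TRAP and input library of each pool, Pde1b passed at 0.21 (adjusted p = 0.0336), and without WT pool 3 it passed at 0.29 (adjusted p = 0.0392). With no filter beyond 1 count it passed at 0.21 (adjusted p = 0.0388). The part that the striatal markers of WT input 3 play in this was not tested.

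Pde4a (−0.07, SE 0.10), Pde8b (−0.01, SE 0.11), Pde9a (0.02, SE 0.16) and Pde10a (−0.12, SE 0.15) had log2 fold changes within about 1 SE of 0. Their 95% intervals allowed folds from 0.742 for Pde10a to 1.27 for Pde9a. Pde10a had log2 ratios of TRAP to input of −0.43 and −0.75 in WT pools 2 and 3 and of −0.02 to 0.29 in the other pools, and its log2 fold change turned to 0.018 without WT pool 3.

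KO was then compared with WT in the TRAP libraries, to ask whether these mRNAs differed between the genotypes in the tagged neurons. None of the 11 entries passed at an adjusted p under 0.05, by edgeR or by DESeq2, and only 0.0682% of all genes did by edgeR. At an unadjusted p under 0.05 there was 1 of 11, Pde7b, against 6.05% of all genes. The groups did not overlap for 1 of 11, Pde4b, against 11.9% of all genes. The median log2 fold change over the entries was 0.02, and over all genes −0.0020.

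Pde7b had the largest difference. WT TRAP 1 to 3 had 16.0, 4.48 and 6.92 CPM, from 90, 19 and 26 reads, and KO TRAP 2 to 4 had 25.2, 18.8 and 15.2 CPM, from 90, 77 and 62 reads. WT TRAP 1 lay above KO TRAP 4, so the groups overlapped. The log2 fold change was 1.07 (SE 0.38), a fold of 2.10 (95% interval 1.20 to 3.67), with an unadjusted p of 0.0126 and an adjusted p of 0.728 by edgeR. The exact two-sided permutation p was 0.2, where 3 against 3 libraries cannot go below 0.1.

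The size of the difference depended on WT TRAP 1. Without WT pool 1 the log2 fold change of Pde7b was 1.79, with an adjusted p of 0.0266 by edgeR, and without each of the other pools it ran from 0.75 to 1.23. WT TRAP 1 was the most deeply sequenced library, with 5614089 reads on genes. Its summed striatal markers (111 CPM) lay between those of WT TRAP 2 (94.96 CPM) and WT TRAP 3 (129 CPM). KO TRAP 2, which had the highest Pde7b of the TRAP libraries, also had their highest sum of striatal markers, 153 CPM. GABAergic neuron markers summed to 881 CPM in WT TRAP 1 against 691 and 728 CPM in WT TRAP 2 and 3, and to 1065 CPM in KO TRAP 2 against 657 and 662 CPM in the other KO TRAP libraries, so among the TRAP libraries of each genotype they were highest where Pde7b was highest. The part of these markers in the difference was not tested.

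Pde4b, a cAMP-specific enzyme also expressed by glia, measured 99.6, 98.7 and 128 CPM for the WT TRAP libraries and 94.5, 93.6 and 93.8 CPM for those of KO. All WT libraries were above all KO libraries, yet the gap between the nearest ones was small. The log2 fold change was −0.21 (SE 0.13, adjusted p = 0.873), with an exact permutation p of 0.1, the smallest possible. Without WT pool 3, which held the library at 128 CPM, it was −0.077. Astrocyte markers summed to 336 to 411 CPM in WT TRAP and 345 to 373 CPM in KO TRAP. Oligodendrocyte precursor markers, 0 of 3 tested called, summed to 30.9 to 51.9 CPM in WT TRAP and 17.3 to 28.9 CPM in KO TRAP. CA2 and CA3 markers, 0 of 7 tested called, summed to 341 to 364.5 CPM in WT TRAP and 321 to 333 CPM in KO TRAP. Both sums were lower in every KO TRAP library, as Pde4b was. The part of any of these markers in the difference was not tested.

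Pde10a, which hydrolyses both nucleotides, measured 115, 70.7 and 92.9 CPM for WT and 127, 96.5 and 127 CPM for KO. The groups overlapped through WT TRAP 1. The log2 fold change was 0.33 (SE 0.16, unadjusted p = 0.0602 and adjusted p = 0.82 by edgeR). It was 0.52 without WT pool 1 and 0.17 without WT pool 2, with no call in either (adjusted p 0.246 and 0.902). As for Pde7b, WT TRAP 2 was the lowest of all 12 libraries.

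For the other 8 entries, log2 fold changes in TRAP ran from −0.05 for Pde2a to 0.19 for Pde9a. Pde1a (−0.03, SE 0.11), Pde1b (0.001, SE 0.13) and Pde2a were the most precisely measured. Leaving Pde7b aside, the 95% intervals of all entries lay between folds of 0.721 (Pde4b) and 1.59 (Pde10a), so that larger changes fall outside the intervals while smaller ones are not excluded at this depth and number of pools.

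**Figure D4:**
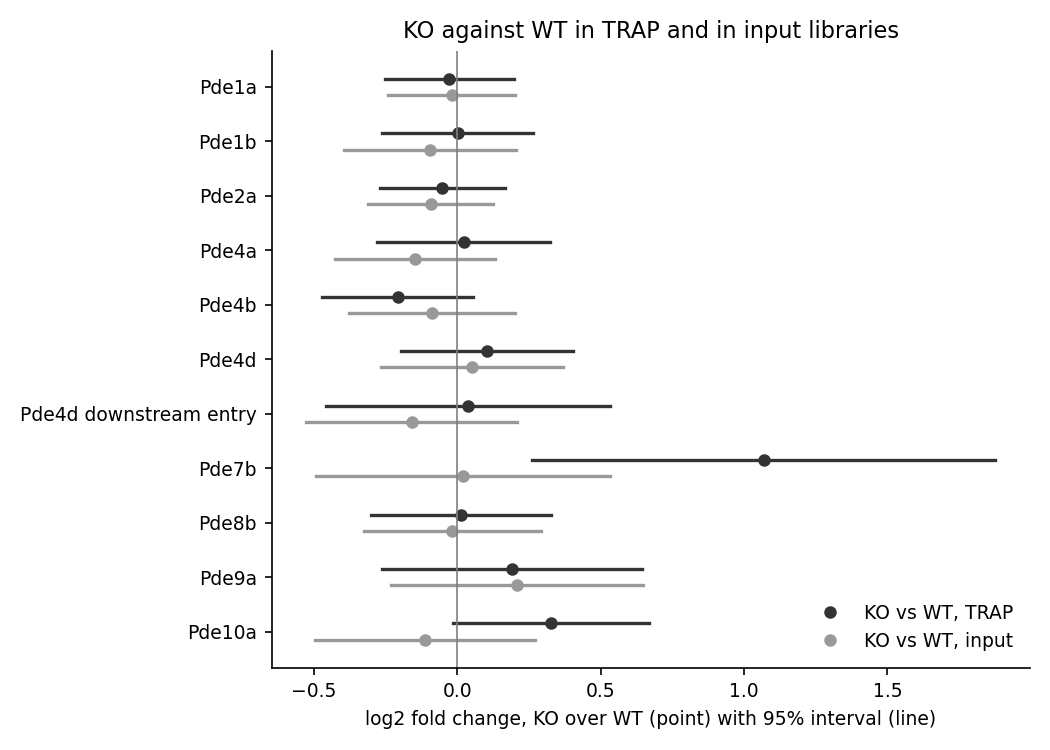
Log2 fold change of KO over WT (points) with 95% intervals (lines) for the 11 entries, in TRAP libraries (dark) and input libraries (light), with 3 pools per genotype. The interval of Pde7b in TRAP, 0.26 to 1.88, is the only one that leaves out 0.

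In the input libraries none of the 11 entries passed, against 0.0312% of all genes, and none had an unadjusted p under 0.05, against 2.89% of all genes. DESeq2 called none either. No entry had groups that did not overlap, against 8.38% of all genes. Pde7b, at 15.1, 19.1 and 27.2 CPM in WT and 24.9, 16.7 and 21.0 CPM in KO, differed by 0.02 on the log2 scale (SE 0.24). Fold changes ran from −0.16 for the Pde4d downstream entry to 0.21 for Pde9a, and the 95% intervals lay between folds of 0.694 (the downstream entry) and 1.57 (Pde9a). Pde9a moved to 0.48 without WT pool 1 (unadjusted p = 0.0192, not called after adjustment) and to 0.059 without WT pool 3. Without WT input 3, Pde10a changed from −0.11 to 0.15 and Pde1b from −0.10 to 0.089, with no call.

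The difference between the genotype effects in TRAP and in input was tested as an interaction, and none of the 11 entries passed, against 0.00757% of all genes. At an unadjusted p under 0.05 there was 1 of 11, Pde7b, against 2.71% of all genes, and DESeq2 also called none after adjustment. For Pde7b the KO effect in TRAP exceeded that in input by 1.04 on the log2 scale (SE 0.48, unadjusted p = 0.0421, adjusted p = 1.00). For Pde10a the difference was 0.44 (SE 0.29, unadjusted p = 0.15). For both genes WT input 3 was the highest and WT TRAP 2 the lowest of the 12 libraries, and without WT pool 3 the differences were 0.62 and 0.18.

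Of 15 other phosphodiesterase genes, 6 passed the filter on low counts within both fractions. Of these, 3 were called lower in TRAP and 0 higher. Among all genes tested, which include those admitted through input only, the shares were 22.5% and 19.6%. Pde3b was lower in TRAP in 6 of 6 pools, with a log2 fold change of −1.52 (SE 0.23). Pde1c was called at −1.35 (SE 0.40) and Pde7a at −0.49 (SE 0.18), each lower in 5 of 6 pools. In WT pool 1 the log2 ratio of Pde1c was 1.18, with 5 reads in WT input 1, and its exact sign-flip p was 0.125. Another 3 genes, Pde5a, Pde8a and Pde3a, passed through their input libraries only, so that a lower value in TRAP was fixed by the filter, and their levels are given as a description. Pde5a, a cGMP-specific enzyme known from smooth muscle and also found in Purkinje cells, stood at 16.3 ± 2.15 CPM in input and 1.66 ± 1.02 CPM in TRAP (SD, n = 6 each). Pde8a stood at 7.27 ± 1.67 CPM in input and 1.51 ± 0.919 CPM in TRAP, while Pde3a ran from 0.582 to 8.62 CPM in input and 0.559 to 4.24 CPM in TRAP. Pde6d (0.33, SE 0.15), Pde11a (0.32, SE 0.17) and Pde12 (0.46, SE 0.21) were not called in TRAP against input. Endothelial and mural cell markers summed to 61.2 to 104 CPM in input and 21.5 to 37.0 CPM in TRAP. Of the 3 that passed within both fractions, 2 were lower in TRAP. Most glial markers, 8 of 13 GABAergic neuron markers and 3 of 4 dentate granule cell markers were lower as well. Markers of several cell types, neurons among them, thus moved with these genes. The part of those cells in the result was not tested. None of these genes was called between KO and WT, with 6 tested in TRAP and 9 in input.

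The enzymes that make the nucleotides were mixed against input, with 2 higher and 4 lower of 12 cyclase genes that passed within both fractions. Of all 13214 genes tested, 19.6% were higher and 22.5% lower. That wider set includes genes admitted through input only, so its shares are not those of a like set. Gucy1b3, a subunit of the nitric oxide receptor that makes cGMP, rose by 0.53 (SE 0.09), from 145 ± 17.1 to 209 ± 26.4 CPM (SD, n = 6 each), and Gucy2g by 1.05 (SE 0.28). Gucy1a2 (−0.39, SE 0.11), Adcy1 (−0.51, SE 0.17) and Adcy2 (−0.28, SE 0.11) were among those that fell.

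Of 14 effector genes that passed within both fractions, 3 were higher and 2 lower. The shares of all genes tested, 19.6% and 22.5%, again come from the wider set with genes admitted through input only. Those higher were the protein kinase A regulatory subunit genes Prkar1b (0.69, SE 0.07) and Prkar1a (0.48, SE 0.06), and the catalytic subunit gene Prkaca (0.32, SE 0.07). Those lower were the Epac genes Rapgef4 (−0.78, SE 0.09) and Rapgef3 (−1.51, SE 0.23).

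Genes for partners of phosphodiesterases, calmodulins, anchoring and scaffold proteins, had 11 of 21 higher and 7 of 21 lower in TRAP among those that passed within both fractions. All genes tested, a wider set with genes admitted through input only, had 19.6% higher and 22.5% lower. Calm2 (0.57, SE 0.07) and the Pde4d-binding scaffold gene Pde4dip (0.38, SE 0.07) rose. The anchoring protein genes Akap9 (−1.31, SE 0.08) and Akap13 (−1.74, SE 0.12) fell. The dynein regulator gene Nde1, which passed through input only, stood at 14.8 ± 2.22 CPM in input and 1.53 ± 1.07 CPM in TRAP (SD, n = 6 each). Between genotypes, the sole gene called in the cyclase, effector and partner lists was Calm3, which encodes calmodulin. In TRAP it was lower in KO, at 1884 ± 50.6 against 2614 ± 120 CPM (SD, n = 3 each), a log2 fold change of −0.47 (SE 0.07, adjusted p = 0.00284 by edgeR). The genes of the calmodulin-dependent enzymes, Pde1a and Pde1b, stood at log2 fold changes of −0.03 and 0.001 in that comparison.

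Among 13203 other genes, those whose log2(CPM + 0.5) followed Pde2a most closely over the 12 libraries were Arhgap33 (Pearson r = 0.951), Mark1 (r = 0.949) and Cx3cl1 (r = 0.948). For Pde7b they were Cntn4 (r = 0.947), Serpine2 (r = 0.908) and Gucy2e (r = 0.902). Gucy2e averaged only 1.705 CPM in TRAP and 3.356 CPM in input, with a lowest value of 0. It passed the filter through input only, so a lower value in TRAP was fixed by the filter. These correlations are descriptions over 12 libraries that share pools, fraction and depth, and the highest of many.

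FosB proteins bind DNA at AP-1 sites, so the promoters of the members were searched for the AP-1 letters TGACTCA on either strand and for the cAMP response element TGACGTCA, which reads the same on both strands. RefSeq on GRCm38.p6 gave 28 promoters for 9 of the genes, from 250 bases before to 50 after each start, and Pde9a was not matched. Some windows of Pde2a and of Pde8b overlap, so the 28 are not separate stretches and some bases are counted more than once. AP-1 letters were in 0 of 28, and in 5.2% of 32851 promoters of all genes. The full cAMP response element was in 0 of 28 against 1.79%. Its core TGACG on either strand, which every full element contains, was in 5 of 28, 1 each for Pde1a, Pde2a, Pde4a, Pde4b and Pde8b, against 20.8% of all promoters. The promoter of Pde7b, the gene with the largest difference between genotypes in TRAP, is shown at chr10:20548279-20548578 on the minus strand of GRCm38.p6, with no letters in capitals because no motif matched.
Pde7b promoter: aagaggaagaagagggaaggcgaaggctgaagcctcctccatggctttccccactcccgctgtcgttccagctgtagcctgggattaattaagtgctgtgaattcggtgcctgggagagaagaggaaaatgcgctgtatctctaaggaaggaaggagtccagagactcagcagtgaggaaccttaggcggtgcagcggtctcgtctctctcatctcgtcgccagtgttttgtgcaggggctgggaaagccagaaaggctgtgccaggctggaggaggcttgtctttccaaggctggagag
The absence of a match concerns these letters in this window alone.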

How the data were processed

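Polyribosomal (TRAP) and input RNA of vHPC punches was sequenced from 3 WT and 3 KO pools. The authors mapped reads to mm9 with TopHat, assigned them to Gencode vM1 genes with HTSeq-count, and deposited raw counts, without normalization or filtering. The strand setting of the counting and the version of TopHat are not given in the sources used here, and the study names DESeq2 for its own tests. P-values measure the spread between pools of mice, and the RNA was amplified, so the floor given below is one of counting error alone.

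Counts were tested with edgeR 4.0.16 in R 4.3.3 (filterByExpr, TMM, robust quasi-likelihood F test, Benjamini-Hochberg adjustment over all genes tested): KO against WT in 6 TRAP and in 6 input libraries, and TRAP against input and the interaction in a fit of all 12 libraries in 4 groups. Fold changes carry SE and 95% intervals from that fit. CPM was TMM-scaled over 12 libraries, and single genes were also tested with exact permutations or sign flips of log2(CPM + 0.5). The fits were tested on simulated data. At the depths given, 3 counts correspond to 0.534 to 0.878 CPM before scaling, and no member fell to that floor. Between libraries of a group, 0.805% to 1.99% of counts over genes were identical, so none was counted as a copy.

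Labels without the word input were read as TRAP. TRAP and input of 1 pool share their number and mice: their deviations from group means correlated at 0.058 to 0.106 in all 6 pools. WT and KO numbers stand for different mice.

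The members, the gene lists and the rule for named genes (all members, listed phosphodiesterases with a mean of at least 10 counts, up to 3 called genes per list and direction, and the 3 genes most correlated with the called members of highest and lowest TRAP to input ratio) were chosen with earlier results of these data known. Alternatives were RLE or total-count scaling, other filters, no mitochondrial genes, DESeq2 1.42.0, a fit of 12 libraries, a pool block and each pool left out. Summing both Pde4d entries was added after seeing the data. Exon stretches were aligned with minimap2 2.31. Of the marker lists, Glis3 and Pou3f1 were left out because each has 2 identifiers. A gene that the rule for named genes picked is not reported here.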

Additional observations from a re-analysis of the deposited data

Results flagged for a closer look

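Pde7b was flagged because the test of the difference between its KO effects in TRAP and input gave an unadjusted p under 0.05. It did not pass after adjustment, so a difference between the fractions is not shown. The KO minus WT difference of the log2 ratio of TRAP to input was 1.04 (SE 0.48), with an unadjusted p of 0.0421 and an adjusted p of 1.00 by edgeR, and none of the 11 entries passed after adjustment. The pool ratios averaged −1.26 ± 1.17 in WT and −0.09 ± 0.32 in KO (SD, n = 3 pools each). Leaving out single pools, the difference ran from 0.62 without WT pool 3 to 1.91 without WT pool 1, with adjusted p-values of 0.66 or more, so its direction held in all 6 fits and its size rested on the WT pools.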

How the results depend on the processing

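Of 598 values of the members under the alternatives, 533 kept their direction and their side of the threshold, 9 lost a call, 4 gained one and 52 changed sign, and every value that changed sign belonged to a gene not called in that comparison. In TRAP, KO against WT, the count of members called ran from 0 to 1 when single pools were left out, the 1 being Pde7b without WT replicate 1. Against input it ran from 3 to 5 with pools left out. It was 3 with both Pde4d entries summed, where Pde7b also missed the threshold, and 6 with the pool as a replicate block, where Pde1b joined. The block changed no other call. Between genotypes the shared numbers stand for different mice, and same-numbered libraries correlated at −0.070 to 0.003. The block gave 0 calls there, and with it the log2 fold change of Pde7b in TRAP was 1.95, against 1.07 without.

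Sign changes under total counts without a composition factor were Pde1a 0.0027 in TRAP, Pde8b 0.016 for TRAP against input, and Pde1a 0.034 and Pde9a 0.029 for the interaction. With the replicate block, KO against WT was 0.011 for Pde2a, −0.23 for Pde4a and −0.074 for the Pde4d downstream entry in TRAP, and −0.15 for Pde4d and −0.16 for Pde7b in input. With both entries summed, Pde4d in input was −0.010. With single pools left out, KO against WT in TRAP ran from −0.14 to 0.048 for Pde1a, −0.13 to 0.13 for Pde1b, −0.15 to 0.050 for Pde2a, −0.11 to 0.17 for Pde4a, −0.15 to 0.16 for the downstream entry and −0.097 to 0.13 for Pde8b. In input it ran from −0.075 to 0.060 for Pde1a, −0.25 to 0.089 for Pde1b, −0.15 to 0.016 for Pde4b, −0.072 to 0.14 for Pde4d, −0.14 to 0.28 for Pde7b, −0.094 to 0.061 for Pde8b and −0.25 to 0.15 for Pde10a. TRAP against input ran from −0.050 to 0.060 for Pde8b, −0.15 to 0.21 for Pde9a and −0.25 to 0.018 for Pde10a. The interaction ran from −0.17 to 0.10 for Pde1a, −0.066 to 0.20 for Pde1b, −0.021 to 0.095 for Pde2a, −0.085 to 0.20 for Pde4d, −0.089 to 0.12 for Pde8b and −0.39 to 0.34 for Pde9a. The cause of these changes was not tested.

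Without a filter beyond 1 count, the median of all genes for TRAP against input was −0.17, against −0.01 with the filter. Pde7b, at 19 to 123 reads per library, is the member that depth limits most.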
